A study of Mus musculus with 9 samples.

Results

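Iron handling was described through 8 genes, of 13499 in the deposited table: the iron exporter Slc40a1, the uptake genes Tfrc, Slc11a2 and Steap3, the ferritin genes Fth1 and Ftl1, and the iron regulatory protein genes Ireb2 and Aco1. They were chosen by gene name, with their fold changes between High and Low already known, and all 8 were present and passed the filter on low values. RNA was sequenced from mouse C57BL/6 embryonic stem (ES) cells, cultured cells able to form the tissues of the embryo, kept on gelatine in medium with LIF, a cytokine that sustains self-renewal. The cells were sorted on a cytometer into the populations High, Medium and Low C-myc, with 3 biological replicates each and 9 libraries in all. The gate was set on a GFP-Myc fusion or on EYFP, and the labels do not say which was used for which library. The populations are therefore fractions of a culture that carries a reporter. No control population without Myc and no untreated population is among them. Myc RNA averaged 106 ± 5.71 (SD, n = 3) in High, 67.1 ± 2.54 in Medium and 26 ± 1.75 in Low, which follows the sort and serves as a check of the labels.

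Iron enters most cells on transferrin, which binds the transferrin receptor encoded by Tfrc and is taken into endosomes. There Steap3 reduces the iron and the transporter Slc11a2 (DMT1) moves it to the cytosol, where it is used, stored in ferritin shells of heavy (Fth1) and light (Ftl1) chains, or exported by ferroportin (Slc40a1). When iron is scarce, the iron regulatory proteins IRP1 (Aco1) and IRP2 (Ireb2) bind RNA hairpins called iron-responsive elements; binding in a 5′ untranslated region (UTR) blocks translation, and binding in the 3′ UTR of Tfrc protects the RNA from decay. In other cell systems Myc has been described to activate Tfrc and Ireb2 and to repress Fth1.

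The iron-responsive elements are shown because they set which of these RNAs the regulatory proteins can bind and in which UTR. GENCODE M21 transcripts (GRCm38) were searched on the transcript strand for a bulged C, any 5 bases of the upper stem and the 6-base loop CAGTGN, with all 5 stem bases able to pair (G with T allowed). It was found in 4 of the 8 genes, at 7 places. It was present in the 5′ UTR of Slc40a1 (chr1:45925465-45925493, minus strand), Fth1 (chr19:9982732-9982760, plus strand) and Ftl1 (chr7:45459779-45459807, minus strand). Tfrc held 4 copies in its 3′ UTR, on the plus strand of chromosome 16: site 1 at chr16:32631219-32631247, site 2 at chr16:32631598-32631626, site 3 at chr16:32631663-32631691 and site 4 at chr16:32631710-32631738. Capitals mark the bulged C and the loop.
Slc40a1: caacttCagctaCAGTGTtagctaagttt
Fth1: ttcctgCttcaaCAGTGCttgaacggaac
Ftl1: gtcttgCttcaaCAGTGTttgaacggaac
Tfrc site 1: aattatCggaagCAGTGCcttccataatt
Tfrc site 2: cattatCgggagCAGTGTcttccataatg
Tfrc site 3: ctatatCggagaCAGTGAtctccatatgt
Tfrc site 4: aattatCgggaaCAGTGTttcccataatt
The same pattern was found in a UTR of 1.03% of the genes with a transcript, in the 5′ UTR of 0.194% and in the 3′ UTR of 0.835%. A match is a description of the letters only, and the other 4 genes may carry elements that this strict pattern passes over.

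Expression is given as the signal the authors deposited, read counts scaled so that each library sums to between 953055 and 1026948, close to the CPM scale of reads relative to library size. Each library held between 11114936 and 16755566 recovered reads. Comparisons were fitted with limma over all 13499 genes on log2(signal + 1 CPM), with Benjamini-Hochberg adjusted p under 0.05 as the threshold. The 8 genes were put together with results of High against Low in view, and Slc40a1 was already known to be among the genes lowest in High. Their values in the comparisons of High, Medium and Low are therefore given as a description, with standard errors (SE) and 95% intervals and no p-value. The comparisons of Medium with Low and of High with Medium use the same Low and High libraries, so they are not separate evidence. Here, as in any bulk sample, fewer cells expressing a gene and less of its RNA per cell cannot be told apart.

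Transcript length moved with the libraries. The median log2 deviation of genes with long transcripts minus that of genes with short ones ranged from -0.07 to 0.26 in High, from -0.05 to 0.31 in Medium and from -0.61 to 0.28 in Low. The lowest value was that of Low replicate 2. It bears on the members because the ferritin transcripts are short (929 nt for Fth1 and 968 nt for Ftl1) and those of Ireb2, Steap3 and Tfrc are long (5770, 5158 and 4890 nt).

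Slc40a1 encodes ferroportin, the only iron exporter known in mammals, and was the member with the widest difference. Its signal was 8.72, 8.18 and 7.16 in High replicates 1 to 3, 17.8, 19.9 and 20.6 in Medium, and 43.1, 39.5 and 40.8 in Low. Every High library lay below every Medium library, and every Medium library below every Low library. The means were 8.02 ± 0.79 in High, 19.4 ± 1.48 in Medium and 41.2 ± 1.82 in Low (SD, n = 3 each), resting on 89 to 132 reads a library in High, 221 to 323 in Medium and 442 to 613 in Low. High was 5.13-fold lower than Low, with a log2 fold change of -2.23 (SE 0.1, 95% interval -2.45 to -2). Fold change placed it 15th from the lowest of the 13499 genes.

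The difference was spread over both steps of the Myc range. It was -1.18 for High against Medium (95% interval -1.41 to -0.95), or 2.42-fold lower in High, and -1.05 for Medium against Low (-1.28 to -0.82), or 2.12-fold lower in Medium. For same-numbered libraries, High minus Low was -2.18, -2.14 and -2.35 on the log2 scale. Slc40a1 was the 1 member of 8 whose 3 populations stood in strict order with no overlap, an arrangement seen for 9.87% of all genes. Slc40a1 lies on chromosome 1 from 45908068 to 45926523 on the minus strand of GRCm38, with no annotated gene overlapping its exons.

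Most measured trophoblast markers went the same way as Slc40a1. Of 13 listed, 9 were in the table, and 8 of these were lower in High than in Low by limma, beside 14.6% of all genes. The summed signal of the 9 was 137 to 145 in High, 227 to 247 in Medium and 482 to 590 in Low. Tfap2c, Rhox6 and Rhox9 made most of it, at 95.3, 12.7 and 9.56 in High and 215, 128 and 120 in Low on average. Eomes was the measured marker not called, with a log2 fold change of 0.18 (4.98 in High and 4.24 in Low on average). Cdx2, Elf5, Hand1 and Plac1 were not among the names in the table. Their part in the Slc40a1 difference was not tested.

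**Figure D1:**
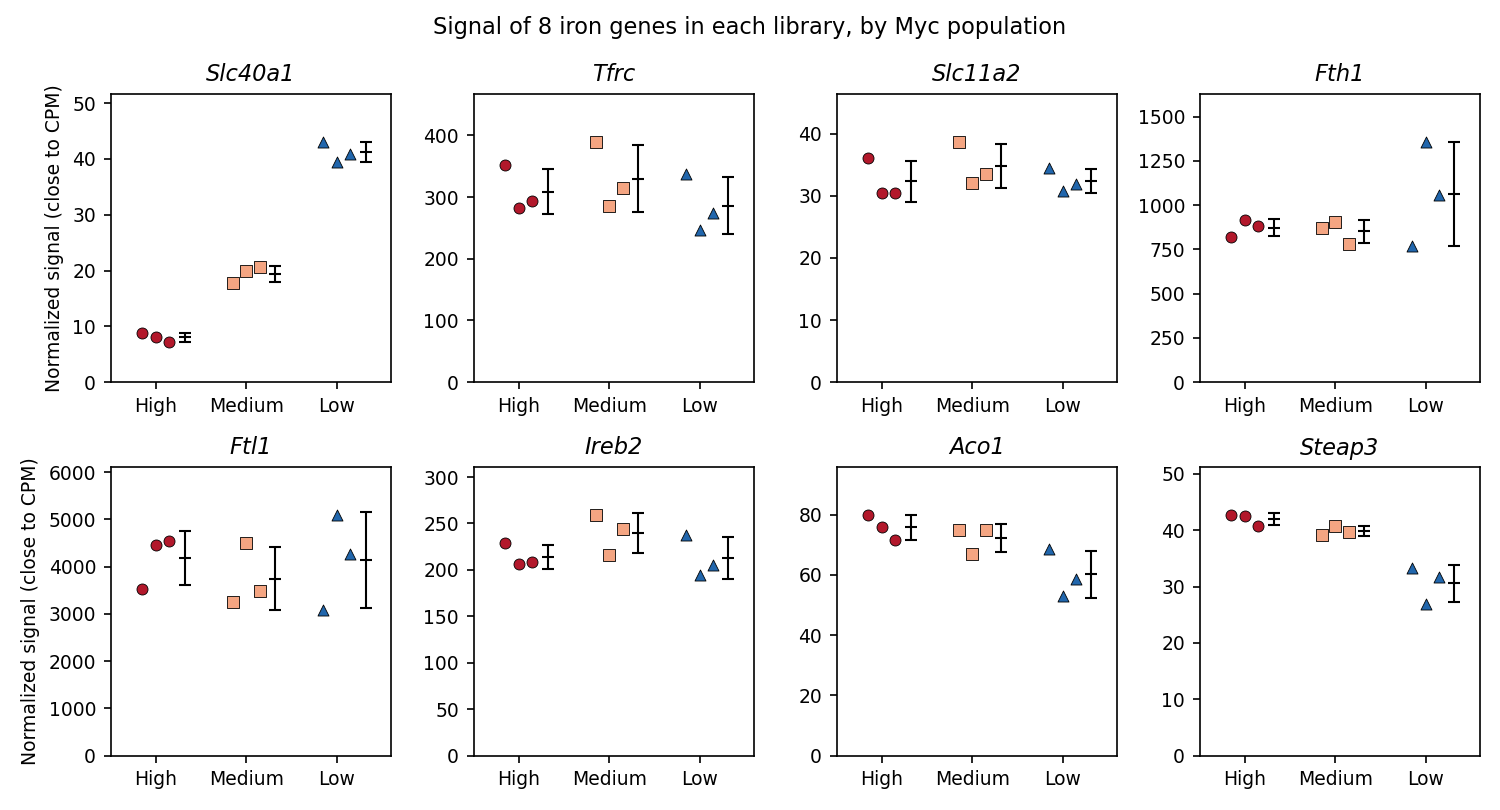
Normalized signal (close to CPM) of each of the 8 genes in the High, Medium and Low libraries; points are libraries in the order of replicates 1 to 3, and the bar beside them is the mean ± SD (n = 3). Slc40a1 averages 8.02 in High and 41.2 in Low without overlap, Steap3 and Aco1 are higher in High than in Low, and the other 5 genes overlap between High and Low.

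The uptake genes differed far less. Tfrc had a signal of 352, 283 and 294 in High, 390, 285 and 315 in Medium, and 337, 247 and 274 in Low. All 3 populations overlapped, and replicate 1 was the highest library in each. The means were 309 ± 37.1 in High, 330 ± 53.9 in Medium and 286 ± 45.9 in Low (SD, n = 3 each), in the order Medium, High, Low, with no neighbours separated beyond their spread. For same-numbered libraries, Medium minus Low was 0.21, 0.2 and 0.2 on the log2 scale, and High minus Low was 0.06, 0.19 and 0.1. The labels do not say whether a number marks a pair. After the length correction Medium against Low was 0.09. The log2 fold change for High against Low was 0.12 (SE 0.15, 95% interval -0.21 to 0.45), which leaves room for a change of either sign.

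Slc11a2, the endosomal transporter that carries the iron to the cytosol, had a signal of 36.1, 30.4 and 30.4 in High, 38.7, 32.1 and 33.5 in Medium, and 34.5, 30.7 and 31.9 in Low. The populations overlapped, with a log2 fold change of 0 for High against Low (95% interval -0.24 to 0.23). An unstranded count could mix reads of Slc11a2 with those of Gm5475, which overlaps its exons on the other strand; whether strand was used is not given in the sources used here.

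Steap3, the endosomal ferrireductase, had a signal of 42.7, 42.6 and 40.8 in High, 39.2, 40.8 and 39.7 in Medium, and 33.3, 26.9 and 31.7 in Low. Every High and every Medium library was above every Low library, while High and Medium overlapped. The means were 42 ± 1.06 in High, 39.9 ± 0.836 in Medium and 30.6 ± 3.31 in Low (SD, n = 3 each). High was 1.37-fold higher than Low, with a log2 fold change of 0.45 (SE 0.09, 95% interval 0.24 to 0.65). The estimates were 0.38 (0.17 to 0.58) for Medium against Low and 0.07 (-0.13 to 0.28) for High against Medium. The departure of Medium from the midpoint was 0.15 (-0.03 to 0.33), so unequal steps are not shown. After a correction for transcript length the values were 0.37 for High against Low and 0.24 for Medium against Low.

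Among the storage genes, Fth1, the ferritin heavy chain that oxidises iron for storage, had a signal of 819, 918 and 882 in High, 873, 903 and 781 in Medium, and 770, 1359 and 1056 in Low. Low replicate 2 was the highest of the 9 libraries and Low replicate 1 the lowest, so Low spanned the values of both other populations. The means were 873 ± 49.9 in High, 852 ± 63.4 in Medium and 1062 ± 295 in Low (SD, n = 3 each). The log2 fold change for High against Low was -0.25 (SE 0.17, 95% interval -0.64 to 0.15). It was -0.46 without Low replicate 1, -0.05 without Low replicate 2 and -0.16 after the length correction, so its size rests on which Low libraries enter.

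Ftl1, the light chain, had a signal of 3522, 4459 and 4550 in High, 3247, 4510 and 3487 in Medium, and 3074, 5092 and 4263 in Low. The populations overlapped over nearly the whole range, with the highest and the lowest library both in Low. High averaged 4177 ± 569, Medium 3748 ± 671 and Low 4143 ± 1010 (SD, n = 3 each), and High against Low gave a log2 fold change of 0.03 (95% interval -0.42 to 0.48). Reads of Ftl1 are uncertain to a degree, since 9 other annotated genes, 6 of them pseudogenes, matched its transcript over at least 200 bases at 90% identity or more. Of these, Gm10116 alone was in the table, at 8.78 ± 1.09 in High, 6.26 ± 1.07 in Medium and 4.31 ± 1.81 in Low (SD, n = 3 each). Fth1 had 1 such copy, a pseudogene, which was not in the table. Exons of Ftl1 are also overlapped by Gm22133 on its own strand and by Gm10252 on the other strand, and neither was in the table.

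The spread of the ferritin genes within a population followed the length trend of the libraries. In the 4 libraries where long transcripts stood higher than short ones (High replicate 1, Medium replicates 1 and 3 and Low replicate 1), Ftl1 lay between 3074 and 3522, against 4263 to 5092 in the other 5. Fth1 lay between 770 and 873 in the 4 libraries and between 882 and 1359 in the 5. The long transcripts were placed the other way round: Tfrc lay between 315 and 390 in the 4 libraries and between 247 and 294 in the 5, and Ireb2 between 229 and 259 against 195 to 216. Slc11a2 lay between 33.5 and 38.7 against 30.4 to 32.1, while Aco1, Steap3 and Slc40a1 overlapped between the 2 sets. With the length correction the SD within populations on the log2 scale was 0.134 for Ftl1, against 0.283 without it, and 0.133 for Fth1, against 0.25. For Tfrc it was 0.132, against 0.21, and for Ireb2 0.0562, against 0.125. Slc40a1 had 0.0917, against 0.102.

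**Figure D2:**
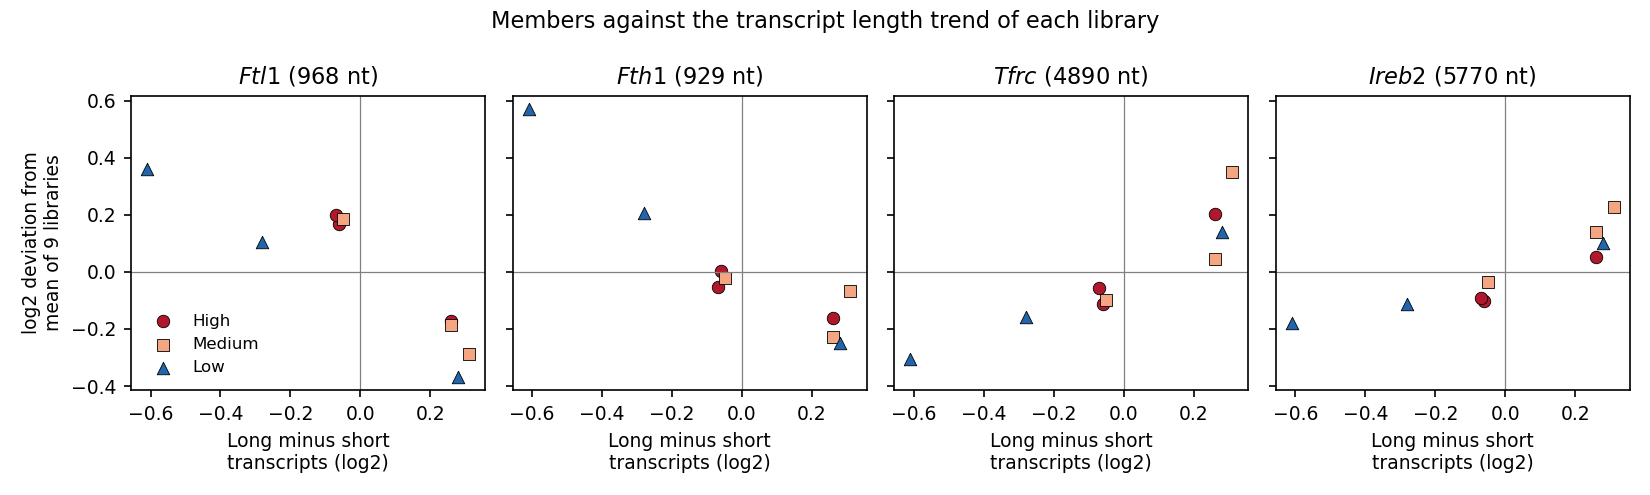
Log2 deviation of 4 members from their mean over the 9 libraries, against the length trend of each library (median log2 deviation of genes with long transcripts minus that of genes with short ones); points are libraries, coloured by population. The short transcripts Ftl1 and Fth1 are low, and the long transcripts Tfrc and Ireb2 high, in the 4 libraries with a positive trend, which come from all 3 populations.

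The regulatory protein genes differed little. Ireb2, which encodes IRP2, had a signal of 229, 206 and 208 in High, 259, 216 and 244 in Medium, and 238, 195 and 205 in Low. The populations overlapped, with means of 214 ± 13 in High, 240 ± 21.8 in Medium and 213 ± 22.3 in Low (SD, n = 3 each). The order by mean was Medium, High, Low, with no neighbours separated beyond their spread, and the log2 fold change for High against Low was 0.02 (SE 0.1, 95% interval -0.21 to 0.24). For same-numbered libraries, Medium minus Low was 0.12, 0.14 and 0.25 on the log2 scale, and High minus Low was -0.05, 0.08 and 0.02.

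Aco1 encodes cytosolic aconitase, which becomes the RNA-binding IRP1 when it lacks its iron-sulphur cluster. Its signal was 79.8, 75.8 and 71.5 in High, 74.8, 66.9 and 74.9 in Medium, and 68.7, 53.1 and 58.5 in Low. High lay above Low without overlap, and Medium overlapped both. High averaged 75.7 ± 4.12, Medium 72.2 ± 4.62 and Low 60.1 ± 7.94 (SD, n = 3 each). The log2 fold change for High against Low was 0.33 (SE 0.1, 95% interval 0.1 to 0.57), or 1.26-fold, and it was also 0.33 after the length correction.

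Counted over the 8 genes, 3 passed limma's threshold for High against Low, beside 28.4% of all genes: Steap3 and Aco1 as higher (13.8% of all genes) and Slc40a1 as lower (14.6%). The same 3 had no overlap between High and Low, beside 41.6% of all genes. For Medium against Low 2 passed, Slc40a1 and Steap3, beside 12% of all genes (Steap3 higher, beside 6.14%, and Slc40a1 lower, beside 5.87%), and these 2 were the members without overlap, beside 29.6%. For High against Medium Slc40a1 alone passed, beside 0.407% of all genes (0.326% lower and 0.0815% higher), and it alone had no overlap, beside 20.1%. Since the members were chosen with these results known, nothing is read from the counts. Aco1 lost its pass without High replicate 1, 2 or 3, Medium replicate 1 or 3, or Low replicate 2 or 3, and after rescaling to the same total or quantile normalization. Without Low replicate 1 Fth1 passed as lower in High. The member count was 2 to 4 over these omissions. For Medium against Low, Steap3 lost its pass without High replicate 2 or 3, any Medium replicate, or Low replicate 2 or 3, which left 1 member, and 5 passed without Low replicate 1. The median log2 fold change of the 8 for High against Low was 0.02, beside 0 over all genes.

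**Figure D3:**
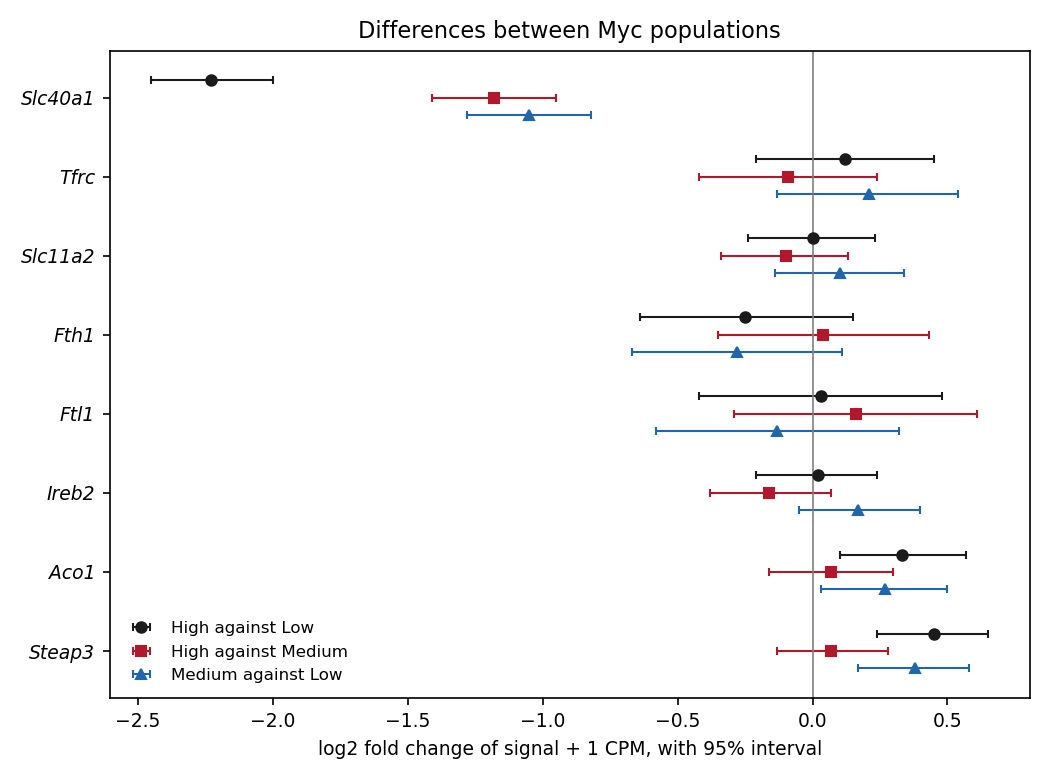
Log2 fold change of signal + 1 CPM with its 95% interval (limma, 9 libraries) for High against Low (circles), High against Medium (squares) and Medium against Low (triangles). The intervals of Slc40a1 exclude 0 in all 3, those of Steap3 and Aco1 in High against Low and Medium against Low, and those of the other 5 genes in none.

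How far Medium lies off the midpoint between High and Low is a contrast that High against Low does not fix, so it was tested. None of the 8 genes passed (limma), none had an unadjusted p under 0.05, and edgeR and DESeq2 also called 0. Over all genes 0 of 13499 passed by limma, or 0%, with 766 at an unadjusted p under 0.05; edgeR also called 0 and DESeq2 21. By limma, 70 genes passed without Low replicate 1, none of them a member, and 1153 with sample weights, Ireb2 among them. For Slc40a1 the departure was 0.07 on the log2 scale (SE 0.09, 95% interval -0.13 to 0.26, adjusted p = 0.781 by limma). Steap3 and Ireb2 had the smallest adjusted p, 0.709 each by limma, with departures of 0.15 (-0.03 to 0.33) and 0.17 (-0.03 to 0.36). These intervals do not show that Medium lies at the midpoint.

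Levels of different genes were set side by side only per kilobase of transcript. In Low, the signal per kb of Slc40a1 was 12.2 ± 0.541, beside 10.7 ± 0.641 for Slc11a2 and 5.94 ± 0.643 for Steap3 (SD, n = 3 each). In High, the signal per kb was 2.38 ± 0.234 for Slc40a1, the lowest of the 8 genes there, beside 10.7 ± 1.09 for Slc11a2 and 8.14 ± 0.205 for Steap3. Ftl1 and Fth1 had the highest signal per kb in High (4320 ± 588 and 940 ± 53.7) as in Low (4280 ± 1050 and 1140 ± 317).

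Profiles over the 9 libraries were compared with that of Slc40a1 for 8536 named genes with a mean signal of at least 10. Predicted genes, Riken clones, pseudogenes and genes known only by an accession were left out. Most alike among them were Eps8l2, Wnt7b, Klhl13, Zfp750 and Kctd15, with Pearson's r from 0.991 to 0.995 on the log2 scale. Most opposite were Aldh2, Rara, Hbegf, Olig2 and Pmel, with r from -0.996 to -0.985. The libraries fall into 3 populations, so these values rank likeness and carry no p. Within populations, after subtracting each population's mean, r was weaker for all 10, at 0.66 for Eps8l2, 0.31 for Wnt7b, 0.13 for Klhl13, 0.44 for Zfp750 and 0.75 for Kctd15. Among the opposite genes it lay between -0.66 for Aldh2 and -0.12 for Pmel. Klhl13, a substrate adaptor of a ubiquitin ligase, averaged 61.7 ± 4.58 in High, 147 ± 13.9 in Medium and 303 ± 21.6 in Low (SD, n = 3 each). Aldh2, the mitochondrial aldehyde dehydrogenase, averaged 306 ± 6.76 in High, 254 ± 3.38 in Medium and 210 ± 4.74 in Low (SD, n = 3 each).

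Markers of the labelled and of other cell types were also read. The 7 ES cell markers were all measured, with a summed signal of 5070 to 5780 in High, 4820 to 5470 in Medium and 4180 to 5530 in Low. Esrrb, Tdgf1 and Zfp42 were higher in High than in Low by limma, with log2 fold changes of 0.54, 0.7 and 0.25, beside 13.8% of all genes. The other 4 were not called and went both ways, at 0.42 for Pou5f1, -0.07 for Sox2, -0.22 for Nanog and -0.09 for Dppa5a. Macrophages and erythroid cells handle much iron, but 1 of 8 and 2 of 10 of their markers were in the table, with sums of at most 24 and 2.67 in High, 17.7 and 2 in Medium, and 23.9 and 2.31 in Low. Visceral and primitive endoderm had 4 of 13 markers, summing to 7.91 to 8.85 in High, 7.73 to 9.58 in Medium and 8.58 to 9.54 in Low, where Sox7 was higher in High (4.01 ± 0.81 against 0.898 ± 0.188 in Low; SD, n = 3 each) and Dab2 lower (2.22 ± 0.518 against 6.02 ± 0.347 in Low; SD, n = 3 each), both called by limma. Fibroblast markers had 7 of 10, summing to 212 to 251 in High, 178 to 209 in Medium and 97.8 to 109 in Low, of which Vim made most (201 in High and 72.6 in Low on average).

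Of 103 other genes of iron handling in 8 lists, 88 were measured, and High against Low called 9 as higher and 8 as lower (limma), or 19.3%, beside 28.4% of all genes. Their median log2 fold change was -0.03, beside 0 over all genes. The count depended on the Low libraries and the model: it was 37 without Low replicate 1, 11 without Low replicate 3, 28 with the replicate number as a block and 33 after the length correction, beside 42.6%, 16.8%, 38.8% and 38.7% of all genes. These lists, too, were drawn up with earlier results of these data known. From each list, up to 3 called genes were named by the size of their fold change. The adjusted p-values given for genes of the lists are therefore a description and not separate evidence.

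Of the uptake genes, 12 of 15 were measured. By limma 4 were higher, beside 13.8% of all genes, and 3 lower, beside 14.6%, and their median was 0.14, beside 0 over all genes. Steap2, a metalloreductase of the Steap3 family, was 2.2-fold higher in High (62.4 ± 7.06 in High against 28.4 ± 1.54 in Low; SD, n = 3 each; log2 fold change 1.11, limma adjusted p = 0.000104). Steap1, another family member, named here after its values were seen, averaged 18.1 ± 1.67 in High and 10.6 ± 2.58 in Low (SD, n = 3 each; limma adjusted p = 0.00776). Slc39a14, a metal importer that takes up iron not bound to transferrin, was 1.71-fold higher (183 ± 10.9 in High against 107 ± 20 in Low; SD, n = 3 each; limma adjusted p = 0.00169). After the length correction the log2 fold change was 0.82 for Steap2, against 1.11 without it. For Steap1 it was 0.83, against 0.74, and for Slc39a14 0.71, against 0.78.

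Slc39a8, a related importer, was near the detection limit, with 1 to 6 reads a library in High and 15 to 27 in Low. Its log2 fold change was -1.15, and it was -2.63 and -0.34 with pseudocounts of 0.1 and 5 CPM. Slc39a8 met the filter on low values only through the Low libraries, where it is highest. Its limma call as lower is therefore a description, also within the counts above. The remaining calls were Exoc6 (higher, 0.27) and Mcoln1 and Ndfip1 (lower, -0.44 and -0.37), also named after their values were seen. The call for Exoc6 was lost without any High replicate, Medium replicate 3, or Low replicate 2 or 3, after rescaling to the same total and after quantile normalization, and that for Ndfip1 without High replicate 1 or Low replicate 3. Trf, the gene of transferrin itself, gave 0.05 (limma adjusted p = 0.822); it and the other genes given below without a call were named for their role after their values were seen.

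Storage and chaperone genes had 0 calls of 6 measured by limma, beside 28.4% of all genes, with 1 at an unadjusted p under 0.05. Ncoa4, the receptor that delivers ferritin to lysosomes, gave 0.14 (limma adjusted p = 0.214), and Herc2, a ligase that controls the turnover of Ncoa4, gave 0.83 with a wide spread in Low (99.9 ± 20.2 in High against 60 ± 31.7 in Low; SD, n = 3 each; limma adjusted p = 0.0685). Of the export genes and their regulators, 3 of 13 were in the table, and Hamp, Cp and Tmprss6 were not among its names. Heph, the ferroxidase hephaestin that acts beside ferroportin, was lower in High (4.2 ± 0.33 in High against 7.66 ± 1.37 in Low; SD, n = 3 each; log2 fold change -0.72, limma adjusted p = 0.00636). Neo1, a coreceptor in the signalling that controls hepcidin, was higher (92 ± 4.13 in High against 65.6 ± 9.4 in Low; SD, n = 3 each; limma adjusted p = 0.00719). After the length correction the log2 fold change of Neo1 was 0.3, against 0.49 without it, and that of Heph was -0.77.

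Genes of iron regulatory protein turnover and other transcripts with known elements had 10 measured, with a median of -0.02. By limma 2 were higher, beside 13.8% of all genes, and 2 lower, beside 14.6%. Epas1, which encodes the hypoxia factor HIF-2 alpha and has a known element in its 5′ UTR, was 2.45-fold higher in High (182 ± 25.9 in High against 74.3 ± 8.65 in Low; SD, n = 3 each; log2 fold change 1.28, limma adjusted p = 0.000152). The strict pattern searched above was not found in a UTR of Epas1. Pfn2, a profilin, and Skp1a, a subunit of the ligase that degrades IRP2, were lower, with log2 fold changes of -0.8 and -0.47. Fbxl5, the iron-sensing subunit of that ligase, gave 0.25 (limma adjusted p = 0.0796).

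**Figure D4:**
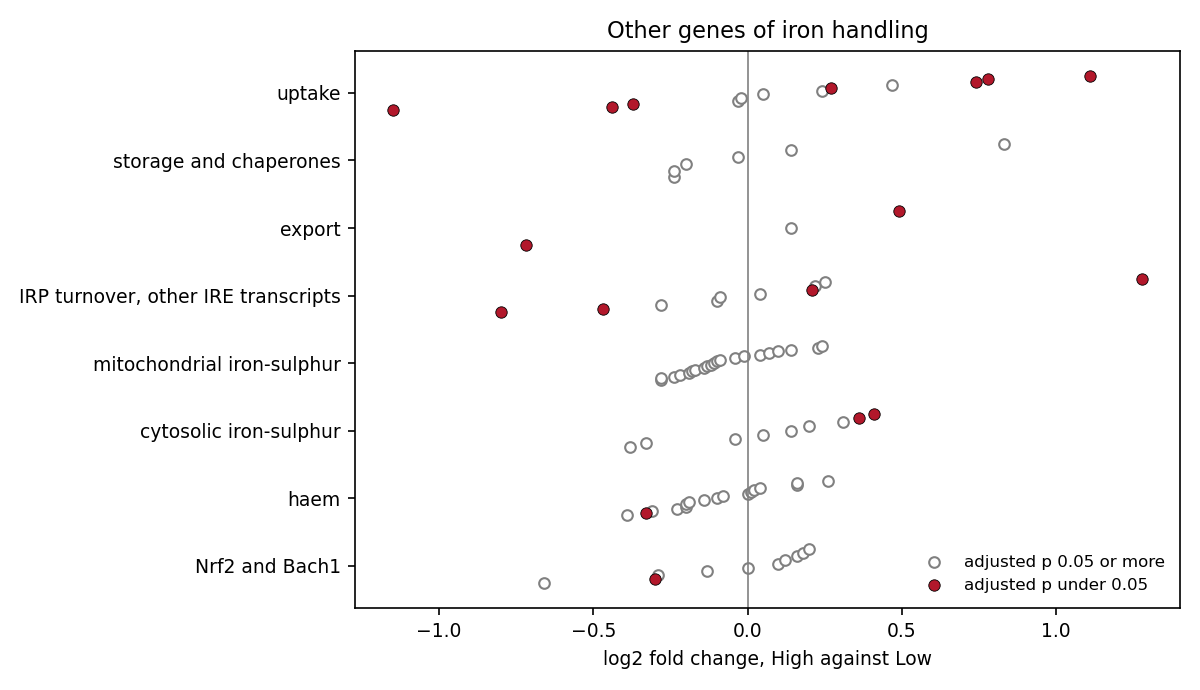
Log2 fold change for High against Low of 88 other genes of iron handling, by list; filled points passed limma's threshold and open points did not. The points furthest from 0 are Epas1 (1.28), Slc39a8 (-1.15) and Steap2 (1.11), and the 21 mitochondrial genes lie between -0.28 and 0.24.

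The genes that use the iron are given beside the 28.4% of all genes called, with the dependence on the Low libraries and the model stated above. Mitochondrial iron import and iron-sulphur cluster assembly had 0 calls of 21 measured by limma, with 1 at an unadjusted p under 0.05 and a median of -0.11. Cytosolic iron-sulphur assembly had 2 of 9 higher: Ciapin1 (149 ± 7.17 in High against 112 ± 13.7 in Low; SD, n = 3 each; log2 fold change 0.41) and Narfl (31 ± 1.24 in High against 23.9 ± 1.15 in Low; SD, n = 3 each; 0.36). The call for Ciapin1 was lost without High replicate 2 or 3 and with quantile normalization, and that for Narfl without High replicate 3. Of 17 haem genes Uros, an enzyme of haem synthesis, was lower (-0.33, limma adjusted p = 0.0356). Of 10 genes of the Nrf2 and Bach1 group, which includes regulators of ferritin and ferroportin transcription, Keap1 was lower (-0.3, limma adjusted p = 0.0309), and Nfe2l2 itself gave 0.16 (limma adjusted p = 0.17). The call for Uros was lost without any High replicate, Medium replicate 2 or 3, or Low replicate 2 or 3. It was also lost with DESeq2 (adjusted p = 0.069), quantile normalization and the length correction, with or without the block (limma adjusted p = 0.0752, 0.0507 and 0.0597 for quantile, with the block and without it). The call for Keap1 was lost without any High replicate, Medium replicate 3, or Low replicate 1 or 3.

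Genes outside the 8 that carry the element pattern shown above went both ways. Of 23 with it in a 5′ UTR, 7 were higher and 1 lower in High (limma), with a median log2 fold change of 0.09. The 7 include Gm10116, whose sequence is similar to that of Ftl1. Of 111 with it in a 3′ UTR, 16 were higher and 26 lower, with a median of 0.01. These counts are a description beside the 13.8% of all genes called higher, 14.6% called lower and 28.4% called either way. A match is not a known element. The E-box CACGTG, the 6-base sequence that Myc binds with Max, was searched in RefSeq promoters (GRCm38.p6, from 250 bases before to 50 after the start, the same on both strands). It was in 0 of 11 promoters of the 6 members listed there, which do not include Slc40a1 and Slc11a2, and in 9.95% of the promoters of genes in the table, which says only that these letters are not in these windows.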

How the data were processed

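RNA of 9 libraries (3 each of High, Medium and Low) was sequenced as single-end reads of 61 nt, per the labels' protocols. The authors deposited a signal per gene and library, gene counts divided by a factor per library on a scale close to CPM. Tools named by the submitters' processing notes, without what each did, are RSEM 1.17, Picard, cutadapt and limma. Genome build and annotation: not given in the sources used here. In 100% of cases the deposited values were whole multiples of a single read within 0.001 read, so whole reads could be recovered.

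All 9 libraries entered a single limma fit (version 3.58.1, trended variance, R 4.3.3) of log2(signal + 1 CPM of each library's total) on population. Genes had to reach 1 CPM in at least 3 libraries, which all 13499 did. On this scale the change of low genes is understated. The threshold was 0.05 after Benjamini-Hochberg adjustment over the whole table. With 3 libraries against 3, an exact permutation test cannot go below p = 0.1, so none is given for a single gene. Transcripts came from GENCODE M21, matched by identifier for 13412 genes (99.36%); length is that of the longest principal transcript of support level 1, or else the longest. Long and short are at least 4425.25 nt and at most 1846 nt. Precision is limited by 3 libraries a population and, for low genes, by counting error; replicates differed by more than counting noise.

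Replicate numbers were shared between populations. Same-numbered High and Low libraries deviated together (r = 0.53, 0.26 and 0.18), which met the preset 0.1, but High replicate 3 with Low replicate 2 gave 0.31, so the numbers are weak evidence of pairing. High with Medium (0.35, 0.17 and -0.04) and Medium with Low (0.24, 0.43 and -0.11) did not meet it. The fit without the block is reported. Alternatives changed the pseudocount, filter, scaling, sample weights, block, length correction, test (edgeR 4.0.16 and DESeq2 1.42.0 on recovered reads) and libraries. The scripts were tested on simulated data. Named genes were all members, up to 3 called genes of each other list by size of fold change, others marked in the text, and the 5 genes most and least like Slc40a1. The members and lists were chosen with earlier results of these data known. A called gene of the lists is not reported here by name.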

Additional observations from a re-analysis of the deposited data

How the results depend on the processing

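Over 21 alternatives, Slc40a1 kept its direction and passed limma's or the count models' threshold in all for High against Low (log2 fold change -2.36 to -1.82), Medium against Low (-1.09 to -0.92) and High against Medium (-1.27 to -0.9). Steap3 passed in all 21 for High against Low (0.36 to 0.51) and in 13 for Medium against Low (0.24 to 0.43), and Aco1 passed in 12 for High against Low (0.25 to 0.43). Members called for Medium against Low were 2, and 1 with rescaling to the same total, 6 with sample weights and 4 with the replicate block (Tfrc and Aco1 beside Slc40a1 and Steap3), and Tfrc was not called with block and length correction together; leaving out single libraries gave 1 to 5. For High against Low, 3 members were called, also with the replicate block, and leaving out single libraries gave 2 to 4. The Medium departure gave 0 members, and 1 with sample weights (Ireb2, adjusted p = 0.0485 by limma; 0.0485 to 0.964 over the alternatives). Other iron genes called for High against Low were 17, and 53 with sample weights, 28 with the replicate block, 33 with the length correction and 35 with both; leaving out single libraries gave 11 to 37. Sample weights called 60.2% of the other iron genes, against 19.3% without, and 58.2% of all genes, against 28.4%. The block changed no other member's call for High against Low. Slc39a8 fell under the filter on low values at 10 CPM and without any Low library. Groups of 3 set the precision, and the cause of these shifts was not tested.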
